A study of Mus musculus with 13 samples.

Results

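The genes described here are 10 integrin subunits of leukocytes and of the alveolar stroma, taken by symbol from the 31053 genes of a single-cell count matrix of mouse lung. They are the alpha subunits Itgax, Itgam, Itgae, Itgal, Itga4, Itga8, Itga2b and Itgad and the beta subunits Itgb2 and Itgb7. Another 17 integrin genes of the matrix were not members. The study used C57BL/6 mice and, by its labels, 4 single-cell samples of lung, named Asthma, Control, PPE-emphysema and PPE-recovery. The asthma model is sensitisation and challenge with ovalbumin, and PPE is porcine pancreatic elastase, put into the trachea once a week in 4 rounds for emphysema and once, weeks before the lung was taken, for recovery. Control mice had the same 4 weekly instillations, with the fluid not stated for them. Each single-cell group came from the dissociated lung of 1 mouse, of an age that the sources used here do not give. The deposited matrix joins 7 libraries, numbered at the end of each barcode, and carries no group name. With no way to tell which mouse a library came from, the matrix was read as 1 sample, no condition was compared and no test was run. The 9 samples titled Acute, Con and emphysema with a replicate number were not analysed here.

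Integrins are surface receptors built from one alpha and one beta chain, and the pair decides the ligand. The alpha chains of Itgal, Itgam, Itgax and Itgad (CD11a to CD11d) pair with the beta chain of Itgb2 (CD18) and hold leukocytes to vessel walls, to each other and to complement-coated particles. The chain of Itgae (CD103) pairs with that of Itgb7 and binds E-cadherin on epithelium, while the chain of Itga4 pairs with that of Itgb1 or Itgb7 and binds Vcam1, fibronectin and Madcam1. Itga8 and Itgb1 form the receptor of nephronectin in mesenchyme, and Itga2b and Itgb3 form the fibrinogen receptor of platelets. CD11c, the product of Itgax, is sorted on in the lung to tell alveolar macrophages and dendritic cells from other leukocytes, and the study's flow gates took alveolar macrophages as CD11c+SiglecF+ and eosinophils as CD11c-SiglecF+.

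Barcodes with at most 10% mitochondrial UMIs were kept, 33618 of 37344. A UMI, or unique molecular identifier, marks 1 captured RNA molecule. The 7 libraries kept 2992 to 7626 cells each, with totals of 29619014 to 76435633 UMIs and medians of 5272 to 9114 UMIs per cell. Libraries 4, 5 and 6 went against the label lung. Haemoglobin genes made up 35.3 to 40.6% of their UMIs, against at most 0.031% elsewhere, and the lung epithelial genes Sftpc and Scgb1a1 together reached at most 0.574 UMIs per 1000000 (CPM) in them, against 8141 to 28830 in libraries 1, 2, 3 and 7. Values are therefore given by library, and levels led by these libraries are given with and without them. Between libraries, 123 barcode sequences occurred more than once, with 1 to 15 for each pair. Cells were clustered and named from marker lists, with each name written as X-like. The 27 classes of at least 50 cells held 31860 cells, and 1709 cells stayed unnamed. A class level is the CPM summed over its cells, with an exact 95% Poisson interval. Shares of cells have exact 95% binomial intervals, and both kinds cover counting error only. Levels are compared for 1 gene across classes, since the ends of different transcripts are not captured equally.

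Markers had named the classes, so that their levels are no separate evidence. In most classes nearly every marker was at its highest there, but only 2 of 5 were in type 2 dendritic cell-like, 2 of 6 in neutrophil-like, 3 of 6 in plasma cell-like and 3 of 5 in classical monocyte-like cells. In neutrophil precursor-like cells 4 of 6 were, while Elane had 0.641 CPM and Mpo had no UMI. The 314 cells named basophil or mast cell-like had a median of 727.5 UMIs, and 211 of them fell into an eosinophil-like class when the libraries were not aligned with each other before clustering. Its values therefore mix at least these 2 kinds of cell, and both kinds are given apart where the result turns on them.

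**Figure D1:**
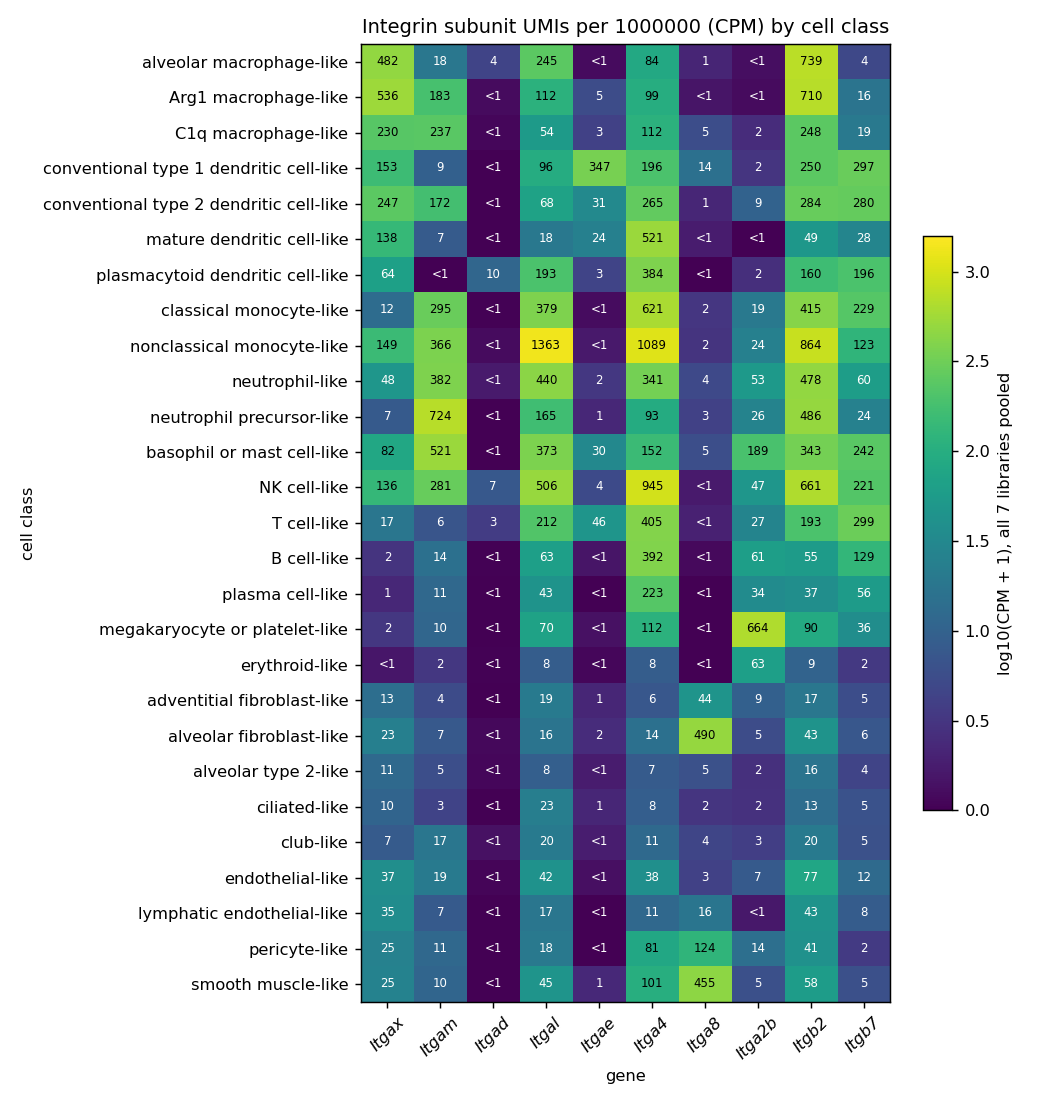
Heat map of the 10 members in the 27 classes of at least 50 cells, with the level in CPM printed in each cell and "<1" standing for values under 1 CPM, 0 included. Itgae, Itga8 and Itga2b each stand high in 1 or 2 classes, while Itgal, Itga4 and Itgb2 spread over nearly all leukocyte classes.

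Itgam and Itgax lie next to each other on chromosome 7 and had different class patterns. Itgam (ENSMUSG00000030786, GRCm38 chromosome 7, 128062640 to 128118491, plus strand) ends 11055 bases before Itgax (ENSMUSG00000030789, 128129547 to 128150657, plus strand). Itgad (ENSMUSG00000070369, 128154376 to 128223816) follows after a further 3718 bases, and Itgal (ENSMUSG00000030830, 127296260 to 127335138) lies on the same chromosome. The starts of Itgam and Itgax are shown because these neighbours differ in level across the myeloid classes, several of which carry both. Each line runs from 250 bases before to 50 after the RefSeq start in GRCm38.p6, on the plus strand, at chr7:128062390-128062689 for Itgam and chr7:128129300-128129599 for Itgax. Capitals mark GAGGAA or its reverse TTCCTC, the core bound by PU.1, a transcription factor of myeloid cells.
Itgam: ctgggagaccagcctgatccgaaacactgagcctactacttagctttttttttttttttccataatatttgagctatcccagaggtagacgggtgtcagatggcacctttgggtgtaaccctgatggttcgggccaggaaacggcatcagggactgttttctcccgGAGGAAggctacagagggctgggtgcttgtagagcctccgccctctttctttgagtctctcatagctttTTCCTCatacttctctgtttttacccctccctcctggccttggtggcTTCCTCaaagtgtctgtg
Itgax: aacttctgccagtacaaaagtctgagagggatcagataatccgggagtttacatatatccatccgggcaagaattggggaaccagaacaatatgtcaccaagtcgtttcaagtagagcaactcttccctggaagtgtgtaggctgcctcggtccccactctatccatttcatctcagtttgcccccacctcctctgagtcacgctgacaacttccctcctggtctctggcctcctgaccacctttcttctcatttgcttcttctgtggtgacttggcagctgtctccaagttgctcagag
The Itgam window held 3 such matches, at -84, -15 and 32 from the start, and the Itgax window held none. On either strand GAGGAA was found in 28.3% of the 32851 promoters of this length. The Itgax window held 1 AGATAA, the core bound by GATA factors, at -217 and 1 TGTGGT, the core bound by RUNX factors, at 13. These are in 11.2% and 16.8% of the promoters. A match is only a description of these letters. The RefSeq table held 6 of the 10 members, and the promoters of Itgae, Itgal, Itgad and Itgb2 are named only.

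Itgax was highest in macrophages. Arg1 macrophage-like cells, which are led by Arg1, Mmp12 and Gpnmb, had 536 CPM (95% interval 525 to 548), with 616 in library 1, 417 in library 2 and 482 in library 7. Alveolar macrophage-like cells had 482 CPM (476 to 489), with 605, 507, 403 and 442 in libraries 1, 2, 3 and 7. The libraries of these classes overlapped, and within library 2 the alveolar macrophage-like cells were the higher ones. Dendritic cells came next and did not reach the level of either macrophage class when pooled. Conventional type 2 dendritic cell-like cells had 247 CPM (236 to 259), conventional type 1 dendritic cell-like cells 153 (144 to 163) and mature dendritic cell-like cells 138 (124 to 153). In type 2 dendritic cell-like cells, lung libraries 1, 2, 3 and 7 gave 332, 222, 215 and 326 CPM and libraries 4, 5 and 6 gave 64.4, 143 and 55.3, so that these sets did not overlap. The cells also lay in different clusters, with 53.6% of those in libraries 4, 5 and 6 in cluster 28, led by Cd209a and Clec10a, and 45.2% in cluster 61, led by Cd7, which held 9.01% and 4.61% of those in the lung libraries. C1q macrophage-like cells had 230 CPM (220 to 241), with 397 in library 1 and 108 to 150 in libraries 2, 3 and 7. Nonclassical monocyte-like cells had 149 CPM and NK cell-like cells 136, and those intervals overlapped with that of mature dendritic cell-like cells. Classical monocyte-like cells had 12.4 CPM, B cell-like cells 2.0 and erythroid-like cells 0.563.

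The alveolar macrophage-like class held 48.4% of all Itgax UMIs and the Arg1 macrophage-like class 20.8%. An Itgax UMI was seen in 95.4% of alveolar macrophage-like cells at a median of 14671 UMIs, 76.4% of type 1 dendritic cell-like cells at 16807 and 71.8% of type 2 dendritic cell-like cells at 12596. In erythroid-like cells, which should lack the gene, 0.269% had one at a median of 5659.5. With cells thinned to 1500 UMIs, and shallower ones left out, the shares were 48.1% for alveolar macrophage-like, 50.2% for Arg1 macrophage-like, 21.6% for C1q macrophage-like, 23.5% for type 2 and 21.4% for type 1 dendritic cell-like cells. This left out 239 of 1403 Arg1 macrophage-like cells, 50 of 2755 alveolar macrophage-like, 46 of 732 C1q macrophage-like, 16 of 561 type 2 and 10 of 403 type 1 dendritic cell-like cells. The intervals of both leading classes overlapped, at 47.3 to 53.1% for Arg1 macrophage-like and 46.2 to 50.04% for alveolar macrophage-like cells, and the other 3 classes lay close together.

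Itgam, for CD11b of the complement receptor on neutrophils and monocytes, was highest in neutrophil precursor-like cells, with 724 CPM (683 to 768), 706 in library 4 and 886 in library 7. The mixed basophil or mast cell-like class came next with 521 CPM (466 to 580), from 141 in library 2 to 1158 in library 7, and without alignment an eosinophil-like class led with 1565. Neutrophil-like cells had 382 CPM (370 to 393), ranging from 224 in library 4 to 526 in library 7. Nonclassical monocyte-like cells had 366 CPM (306 to 435 by library) and classical monocyte-like cells 295 (256 to 389). NK cell-like cells had 281 CPM, C1q macrophage-like cells 237 and Arg1 macrophage-like cells 183. Alveolar macrophage-like cells had 17.7 CPM and B cell-like cells 14.2. Plasmacytoid dendritic cell-like cells had no Itgam UMI, which allows up to 5.21 CPM, but 64.3 CPM of Itgax. The Itgam level carries a limit, since 66.3% of its transcript stretches of 50 bases also occur in Gm49368, a gene model that overlaps it on the same strand. Reads shared by both may have been left out or split, and Gm49368 itself had 59.8 CPM in neutrophil-like cells.

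**Figure D2:**
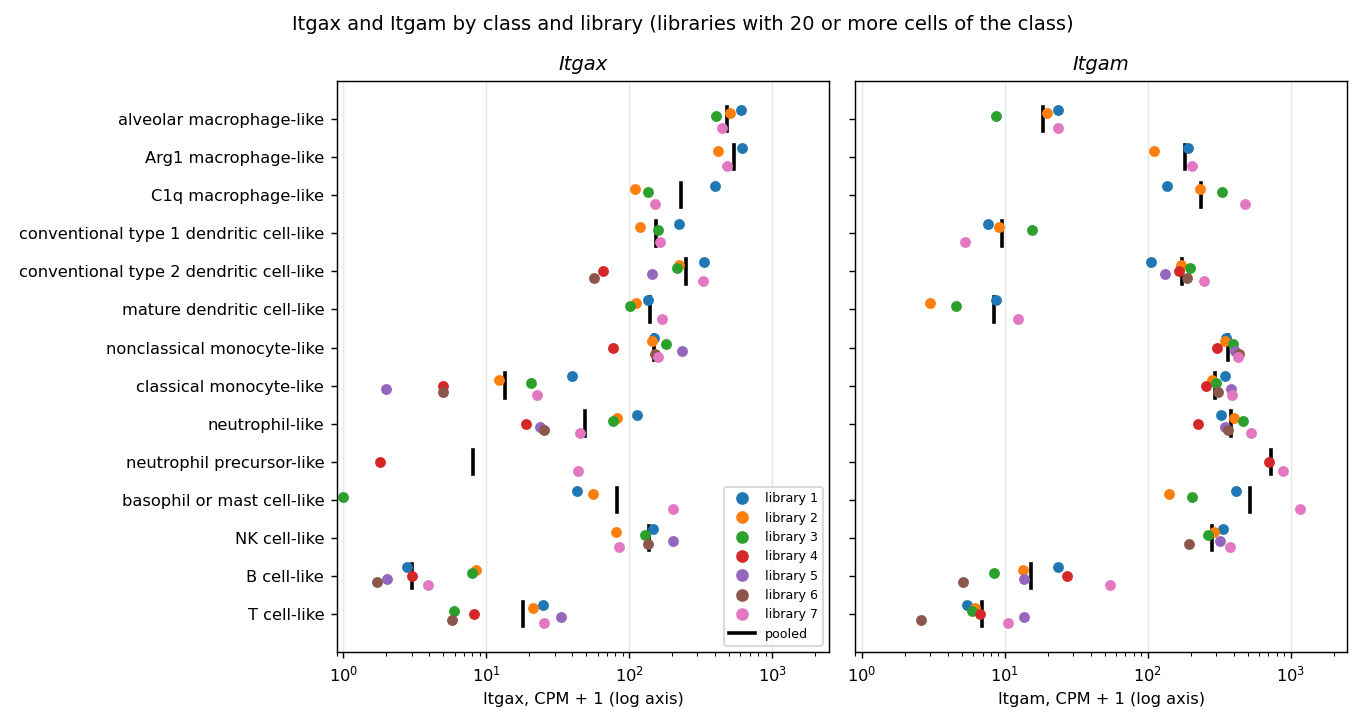
Itgax and Itgam in CPM + 1 on a log axis, by class, with 1 point for each library that has at least 20 cells of the class and a black bar for the pooled level. Itgax points of alveolar macrophage-like cells lie from 403 to 605 CPM, while the pooled Itgam level of the same cells is 17.7.

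Of the Itgam and Itgax UMIs of a class, Itgam made up 99.0% in neutrophil precursor-like, 96.0% in classical monocyte-like and 88.9% in neutrophil-like cells. The share was 71.1% in nonclassical monocyte-like and 67.4% in NK cell-like cells, 50.7% in C1q macrophage-like, 41.1% in type 2 dendritic cell-like and 25.4% in Arg1 macrophage-like cells. It fell to 5.30% in type 1 dendritic cell-like and 3.54% in alveolar macrophage-like cells. These are shares of UMIs from different genes and describe an order of classes, not of protein.

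Both macrophage classes with much Itgax were set side by side, because Arg1 macrophage-like cells share the Itgax level of alveolar macrophage-like cells. A gene with at least 50 UMIs in all counted as higher or lower past a 2-fold ratio of the CPM. Of 11271 such genes, 6.56% were higher and 7.22% lower in Arg1 macrophage-like cells. Of the members, 9 had enough UMIs, of which 3 were higher and 3 lower, and the median log2 ratio over all genes was -0.16. Itgam was 10.3 times higher (95% interval 9.53 to 11.2), and the ratio was 8.40, 5.84 and 9.07 within libraries 1, 2 and 7. Itgb7 was 4.10 times higher (3.35 to 5.04), at 16.0 against 3.90 CPM, and 2.12, 8.34 and 4.74 times within these libraries. Itgae rested on 72 and 10 UMIs, with a ratio of 18.6. Itgal was lower, at 112 against 245 CPM, with a ratio of 0.46 in the pool but 0.65, 0.70 and 0.34 by library, so that library 7 alone was past the limit. Itga8 had 8 and 46 UMIs and Itgad 4 and 145. Most of these 145 came from library 3, within which the classes were not compared. Itgax and Itgb2 had ratios of 1.11 and 0.96. Within libraries 1, 2 and 7 the shares of genes that were higher were 6.16%, 3.27% and 5.14%, and of genes that were lower 4.85%, 4.90% and 5.94%. In each of these libraries 6 members were measured and Itgam and Itgb7 were higher, and in library 7 Itgal was lower.

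Alveolar macrophage-like cells fell into 2 clusters that differed in these genes. Cluster 6, with 1707 cells led by Plet1, Atp6v0d2 and Ccl6, had 24.0 CPM of Itgam, 522 of Itgax and 823 of Itgb2. Cluster 12, with 1048 cells led by Fabp1, Marco and Ear1, had 6.71, 413 and 594. Library 3 held 661 cells of cluster 12, but the Itgam levels did not overlap by library, with 22.6 to 29.2 CPM in cluster 6 and 6.14 to 7.77 in cluster 12. The Itgax and Itgb2 levels of these clusters are pooled, and the part of library 3 in their gaps was not tested. Among C1q macrophage-like cells, 18 cells of cluster 51, led by Prg4, Alox15 and Saa3, had 1567 CPM of Itgam and 1 Itgax UMI, while the 714 of cluster 15 had 187 and 239 CPM. The members were kept out of the genes used for clustering, and these values are descriptions of the clusters.

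Ccr3, the eotaxin receptor, was used to find candidate eosinophils, since the study sorted these as CD11c- cells. The gates read surface protein, and the levels here are of RNA, so that they do not tell in which gate a cell would fall. A Ccr3 UMI was present in 226 cells. Of these, 111 lay in the basophil or mast cell-like class, 28 were neutrophil-like, 22 T cell-like, 14 neutrophil precursor-like, 8 Arg1 macrophage-like and 5 alveolar macrophage-like. Together they had 152 CPM of Itgax (129 to 179), 308 of Itgam (273 to 345) and 51.1 of Siglecf (37.8 to 67.5), for the lectin that the gates combine with CD11c. Their pooled Itgax was thus below that of both macrophage classes and above that of neutrophil-like cells, 47.7 CPM. The pool includes some cells of those classes. With at least 2 Ccr3 UMIs, 61 cells had 228 CPM of Itgax (163 to 310), 473 of Itgam and 79.7 of Siglecf. The 115 cells outside the basophil or mast cell-like class had 143, 205 and 25.7. They held 817865 of the 959256 UMIs of the 226 cells and 117 of the 146 Itgax UMIs, so that the pooled level mostly describes them. The 111 cells inside that class had 205 CPM of Itgax (137 to 295).

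The level of Itgax in Ccr3-positive cells differed between libraries. Library 7 held 117 of the cells and had 311 CPM of Itgax and 708 of Itgam, and library 1 held 39 cells with 240 CPM of Itgax. Libraries 2 and 3, with 22 and 19 cells, had 46.5 (17.1 to 101) and 56.4 (25.8 to 107), from 6 and 9 UMIs. Libraries 4, 5 and 6 held 7, 14 and 8 cells with 57.6, 9.87 and 81.5, from only 4, 1 and 4 UMIs. The interval of library 6, 22.2 to 209, overlapped with that of library 1, 183 to 308. Depth differed too, with medians of 729 UMIs in library 7, 3783 in library 1, 4512 in library 2 and 8195 in library 3. The lowest depth of any kept cell was 5735, 3439 and 3946 UMIs in libraries 4, 5 and 6, against 304 to 501 in the others. Cells as shallow as those of library 7 were thus absent there. The part of depth and cell make-up in these differences was not tested. An Itgax UMI was seen in 28.8% of the 226 cells at a median of 2065 UMIs, and in 17.6% of the 125 that could be thinned to 1500 UMIs. This left out 101 cells, and 99 of the 125 lay outside the basophil or mast cell-like class. Thinned to 400 UMIs, which left out 9 cells, the share was 7.83%, beside 17.1% in alveolar macrophage-like, 7.49% in type 2 dendritic cell-like, 1.83% in neutrophil-like and 0.077% in erythroid-like cells. A UMI of both Itgax and Siglecf was found in 14 of the 226 cells, of Itgax alone in 51, of Siglecf alone in 21 and of neither in 140. In the 2755 alveolar macrophage-like cells these counts were 1564, 1064, 39 and 88, at a much greater depth.

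Clustering without alignment gave a class that the eosinophil markers named. Its 246 cells were led by Ccr3, Alox15, Il1rn and Prg2, 109 had a Ccr3 UMI, and the median was 555 UMIs. The listed eosinophil markers Il5ra and Epx were scarce, with 6 and 2 UMIs (36.5 and 12.2 CPM) in 2.44% and 0.813% of the cells. The class had 1565 CPM of Itgam (1379 to 1768), 743 of Itgal, 451 of Itgb2, 311 of Itgax (231 to 408), 286 of Itga4, 97.4 of Itgb7, 36.5 of Itga2b and 292 of Siglecf. Its Itgam was above that of every class of the main clustering. Library 7 held 211 of its cells, with 1648 CPM of Itgam and 296 of Itgax, and the 32 cells of library 1 had 1094 and 448. In library 7, other classes gave 2.91 CPM of Itgax in B cell-like, 24.1 in T cell-like, 15.8 in alveolar fibroblast-like and 44.6 in neutrophil-like cells. The part of free RNA in the Itgax of these shallow cells was not tested.

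The mixture in the basophil or mast cell-like class showed in its integrins. The 211 cells shared with the eosinophil-like class had 1563 CPM of Itgam (1364 to 1782) and 296 of Itgax (213 to 400), with 1077 of Ccr3 and no UMI of Mcpt8 or Ms4a2, the basophil protease and the chain of the IgE receptor. The other 103 cells had 214 of Itgam (174 to 259), 18.7 of Itgax (8.5 to 35.4), 836 of Mcpt8 and 639 of Ms4a2. Itga2b and Itgb7 were higher in these 103 cells, at 236 and 282 CPM against 28.2 and 106. In the class as a whole, 521 CPM of Itgam stood beside 81.7 of Itgax.

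**Figure D3:**
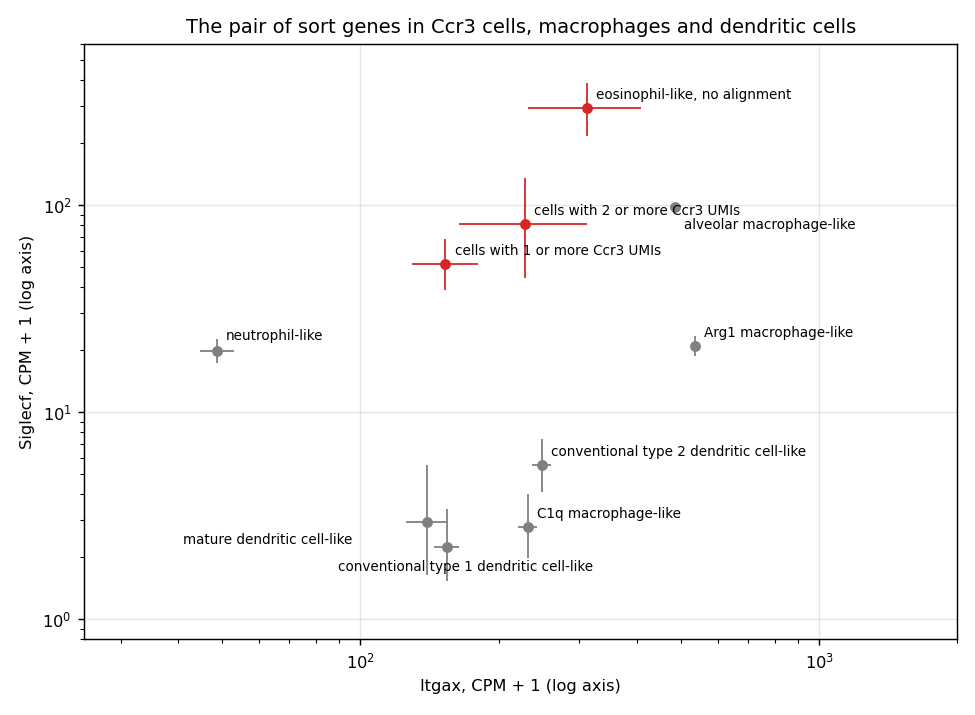
Itgax against Siglecf in CPM + 1 on log axes with exact 95% Poisson intervals, for the classes (grey) and for cells chosen by Ccr3 or named eosinophil-like without alignment (red). Alveolar macrophage-like cells, at 482 CPM of Itgax and 96.6 of Siglecf, and the eosinophil-like cells, at 311 and 292, both lie high on both axes.

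Itgal and Itgad complete the CD11 group. Itgal, for the alpha chain of LFA-1, which binds Icam1 and Icam2, was highest in nonclassical monocyte-like cells with 1363 CPM (1339 to 1387), from 1165 in library 6 to 1908 in library 7. NK cell-like cells followed with 506 CPM (480 to 533) and at most 714 in a library, then neutrophil-like cells with 440 and classical monocyte-like cells with 379. In classical monocyte-like cells libraries 1, 2, 3 and 7 gave 352 to 690 CPM and libraries 4, 5 and 6 gave 247 to 319. Itgad had 268 UMIs over all cells. Its level was 10.4 CPM in plasmacytoid dendritic cell-like cells (3.83 to 22.7), from 6 UMIs, and 6.63 in NK cell-like cells (3.99 to 10.4), so that their order was not resolved. Cox6a2, at 1159 CPM in the plasmacytoid dendritic cell-like class, lies opposite to Itgad. Alveolar macrophage-like cells had 3.56 CPM, and 128 of their 145 Itgad UMIs came from library 3, where the level was 13.6 against 0.107 to 0.875 in libraries 1, 2 and 7. Of the Itgad transcript stretches of 50 bases, 13.5% also occur in Itgax, Gm17831 or Slc25a51, and 8.02% of those of Itgax occur in Itgad. The part of shared reads in the Itgad levels was not tested.

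Itgae and Itga4 are the alpha partners of Itgb7. Itgae (ENSMUSG00000005947, chromosome 11, 73090583 to 73147446) was high in conventional type 1 dendritic cell-like cells with 347 CPM (333 to 362), which held 55.4% of its UMIs. The lung libraries gave 399, 288, 334 and 449. The next class, T cell-like cells, had 45.5 CPM (41.9 to 49.4), and type 2 dendritic cell-like cells had 30.7. Type 1 and type 2 dendritic cells thus differed more in Itgae than in Itgax or Itgb7, the latter at 297 (284 to 310) and 280 (268 to 292) CPM.

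T cell-like cells were split by their own genes. The 80 cells with Foxp3, the factor of regulatory T cells, had 209 CPM of Itgae (172 to 252), the 819 with Cd8a or Cd8b1 and no Cd4 had 47.8 (42.4 to 53.6), and the 464 with Cd4 and no Foxp3 had 21.4. In the lung libraries alone, 72 Foxp3 cells had 222 CPM. The 476 cells with none of these genes had 40.1 CPM. In the lung libraries the Cd8 cells had 48.9 CPM, the Cd4 cells 29.2 and those with none 38.9, while the Cd4 cells of libraries 4, 5 and 6 had 5.23. Thinned to 1500 UMIs, an Itgae UMI was present in 30% of the Foxp3 cells, 6.89% of the Cd8 cells, 3.04% of the Cd4 cells and 5.54% of those with none, with 0, 6, 4 and 25 shallower cells left out. Itgb7 had 555 CPM in the Foxp3 cells against 373 in those with none, 369 in the Cd4 cells and 212 in the Cd8 cells. Thinned to 1500 UMIs, an Itgb7 UMI was present in 50% (38.6 to 61.4), 41.5%, 43.3% and 26.9% of these. The Foxp3 interval then overlapped with those of the Cd4 cells (38.7 to 47.9) and of those with none (36.9 to 46.2).

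Itga4 (ENSMUSG00000027009, chromosome 2, 79255426 to 79333123), for CD49d of VLA-4, was broad. Nonclassical monocyte-like cells had 1089 CPM (1068 to 1111; 939 to 1222 by library), NK cell-like cells 945 (910 to 982) and classical monocyte-like cells 621. The first and second overlapped by library, since NK cell-like cells ranged from 669 to 1334. Mature dendritic cell-like, T cell-like, B cell-like and plasmacytoid dendritic cell-like cells had 521, 405, 392 and 384 CPM. Alveolar macrophage-like cells had 84.1 and adventitial fibroblast-like cells, the lowest class, 6.33.

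Itga8 (ENSMUSG00000026768, chromosome 2, 12106632 to 12301922, minus strand) was the stromal member. Alveolar fibroblast-like cells had 490 CPM (480 to 500) and held 83.9% of its UMIs. The level was 328 in library 1, 517 in library 2, 434 in library 3 and 622 in library 7. Smooth muscle-like cells had 455 CPM (427 to 484), with 298, 483 and 392 in libraries 1, 2 and 3, so that the intervals of these classes overlapped. Pericyte-like cells had 124 CPM (101 to 151) and adventitial fibroblast-like cells 44.3 (36.5 to 53.3). Within libraries 2 and 3, pericyte-like cells had 117 and 163 CPM and adventitial fibroblast-like cells 22.7 and 66.8, which kept this order. No other class exceeded 16.5 CPM. E030013I19Rik, an antisense gene, overlaps Itga8 and had 29.5 CPM in smooth muscle-like cells.

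The ligands of this receptor divided the stroma. Npnt, for nephronectin, had 1788 CPM in alveolar fibroblast-like cells, 520 in pericyte-like, 306 in smooth muscle-like and 41.9 in adventitial fibroblast-like cells. Fn1, for fibronectin, had 1588 in alveolar and 995 in adventitial fibroblast-like cells, against 354 in smooth muscle-like and 296 in pericyte-like cells. The order of these fibroblast classes depended on the library, with 1867 and 884 CPM in library 2 but 607 and 1116 in library 3. Spp1, for osteopontin, was highest among the 4 in pericyte-like cells with 2256 CPM. The partner Itgb1 was highest in smooth muscle-like cells with 926 CPM, beside 764 in pericyte-like and 444 in alveolar fibroblast-like cells. Npnt was thus highest in alveolar fibroblast-like cells, which led in Itga8 together with smooth muscle-like cells. Itgb1 was higher in smooth muscle-like and pericyte-like cells than in alveolar fibroblast-like cells.

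Itga2b (ENSMUSG00000034664, chromosome 11, 102453297 to 102470122, minus strand) marked megakaryocyte or platelet-like cells, with 664 CPM (633 to 696). Libraries 4, 5 and 6 held 464 of these 485 cells and gave 640 CPM, while the 21 cells of the lung libraries gave 1617. Haemoglobin genes took 58.3% of the UMIs of the 464 cells, and without them their Itga2b was 1535 CPM. The basophil or mast cell-like class followed with 189 CPM, which came mostly from its 103 cells of the basophil kind. Erythroid-like cells had 62.7.

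In libraries 4, 5 and 6, Itga2b was present in each leukocyte class. B cell-like cells had 86.3 CPM there against 0.746 in the lung libraries, T cell-like cells 63.6 against 1.09 and neutrophil-like cells 101 against 5.98. NK cell-like cells had 81.3 against 3.16 and nonclassical monocyte-like cells 71.3 against 0.50. Over the classes of these 3 libraries with at least 20 cells, apart from megakaryocyte or platelet-like cells, Itga2b ran from 29.2 to 101 CPM beside 134 to 480 CPM of Pf4, a platelet chemokine, and there were 17.5 to 29.6 Itga2b UMIs for 100 of Pf4. Megakaryocyte or platelet-like cells had 28.0. C1q macrophage-like cells had 1451 CPM of Pf4 but 1.42 of Itga2b. The part of platelets attached to cells or of free platelet RNA in these levels was not tested.

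**Figure D4:**
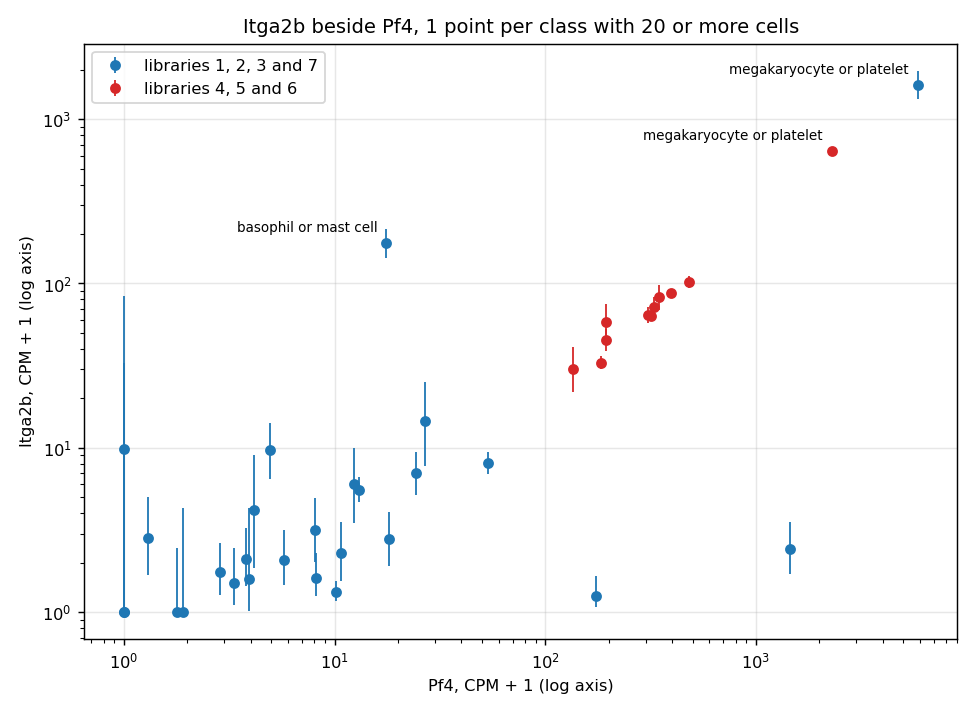
Itga2b against Pf4 in CPM + 1 on log axes, with 1 point per class and library set of at least 20 cells. Leukocyte classes of libraries 4, 5 and 6 lie between 29.2 and 101 CPM of Itga2b, and C1q macrophage-like cells lie at 1451 CPM of Pf4 with 1.42 of Itga2b.

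The beta chains were spread over many classes. Itgb2 (ENSMUSG00000000290, chromosome 10, 77530252 to 77565708) was highest in nonclassical monocyte-like cells with 864 CPM (845 to 884), followed by alveolar macrophage-like cells with 739, Arg1 macrophage-like cells with 710 and NK cell-like cells with 661. Within the first class libraries ran from 773 to 1195, and in alveolar macrophage-like cells from 503 to 864, so that these classes overlapped. Every class had Itgb2 UMIs, down to 9.35 CPM in erythroid-like cells. Itgb7 (ENSMUSG00000001281, chromosome 15, 102215995 to 102231944, minus strand) had 299 CPM in T cell-like (290 to 309), 297 in type 1 and 280 in type 2 dendritic cell-like cells. The first 2 could not be told apart by their pooled intervals. Of the T cell-like cells, 630 of 1878 came from the libraries rich in haemoglobin, against 7 of 403 type 1 dendritic cell-like cells. Without these libraries the T cell-like level was higher, so that the tie is given for the pool only. Classical monocyte-like cells had 229, NK cell-like cells 221 and alveolar macrophage-like cells 3.90.

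Partner genes were counted in the same single cells, as they stood and thinned to 1500 UMIs, with shallower cells left out. Among T cell-like cells Itgb7 was present in 81.6% of cells with an Itgae UMI (76.8 to 85.8) and 73.5% of those without, and thinned in 46.6% (37.4 to 56.0) and 34.96% (32.7 to 37.3), which is further apart. Itgb1 was present in 47.3% of T cell-like cells with an Itga4 UMI and 42.7% of those without, and thinned in 26.95% (23.6 to 30.5) and 19.6% (17.3 to 22.0). Among alveolar macrophage-like cells Itgb2 was present in 97.8% of cells with Itgax and 78.7% of those without, whose medians were 14937.5 and 3878 UMIs. Thinned, the shares were 62.4% and 61.2%. For Itgb1 and Itga8 in alveolar fibroblast-like cells, 94.5% and 44.7% became 50.8% and 45.8%. At equal depth the pooled intervals of both pairs in T cell-like cells did not overlap, narrowly so for Itgb7 with Itgae. No other pair and class counted had this. Unthinned by library, Itgb7 was more frequent with Itgae in libraries 1, 2, 3, 5, 6 and 7. Itgb1 was more frequent with Itga4 in libraries 1, 2, 5 and 6. It was less frequent in library 3 (31.7% against 42.2%) and library 7 (52.3% against 53.5%). The part of mixed libraries and T cell subsets in the pooled gaps was not tested.

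Within classes present in both sets, libraries 4, 5 and 6 were set against libraries 1, 2, 3 and 7. The sets differ in tissue make-up, in haemoglobin and in depth, and a difference within a class cannot be told apart from these. The lowest depth of a kept cell was 3439 to 5735 UMIs in libraries 4, 5 and 6 and 304 to 501 in the others. Of the genes with at least 50 UMIs in neutrophil-like cells, 5.06% were more than 2-fold higher and 10.7% lower in libraries 4, 5 and 6, as were 1 and 1 of the 7 members measured. Itga2b was 16.9 times higher, and Itgax was lower at 21.7 against 72.7 CPM, a ratio of 0.30 (0.24 to 0.37), beside a median log2 ratio of -0.22 over all genes. Itgam, Itgal and Itgb2 had ratios of 0.69, 0.60 and 0.67, and Itga4 of 1.01. Of these cells, 88.1% of the lung libraries lay in cluster 10, led by Il1b and G0s2, and 72.1% of the others in cluster 16, led by Retnlg and Stfa2l1.

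In classical monocyte-like cells 4.42% of genes were higher and 4.56% lower in libraries 4, 5 and 6, and of 8 members Itga2b was higher, at 51.8 times, and Itgax lower, at a ratio of 0.15. Itgax was 11.2 to 38.7 CPM in the lung libraries and 1.0 to 4.0 in the others. In nonclassical monocyte-like cells 3.18% of genes were higher and 2.64% lower, and Itga2b alone of 7 members passed, as higher. In B cell-like cells 6.86% were higher and 4.09% lower, with a median log2 ratio of 0.15. Of 7 members there, Itga2b was higher, and Itgax at 0.20 and Itgam at 0.31 were lower. The Itgam ratio leaned on library 7, with 148 UMIs in 241 B cell-like cells. Libraries 1, 2 and 3 had 38, 20 and 15 UMIs in 326, 292 and 470 cells. Library 4 had 26.4 CPM of Itgam in these cells, against 12.6 and 4.14 in libraries 5 and 6. Cells of cluster 3, led by Ighd and Fcer2a, made up 2036 of the 3100 B cell-like cells in libraries 4, 5 and 6, while cluster 1 held most of those in the lung libraries. In T cell-like cells 3.45% of genes were higher and 8.29% lower, with a median log2 ratio of -0.11, and in NK cell-like cells 3.08% and 4.62%. Itga2b alone was higher past the limit there, of 8 and 7 members. Itga4 had ratios of 1.64 and 1.48, within the limit. The T cell-like cells lay in cluster 13, led by Cxcr6, in the lung libraries (66.7%) and in cluster 14, led by Lef1, in the others (70.6%).

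Of the ligands outside the stroma, 18 of 19 listed symbols were in the matrix. Icam1, the counter-receptor of the CD11a and CD11b integrins, was highest in mature dendritic cell-like cells with 315 CPM, and Icam2 in endothelial-like cells with 840. Vcam1, bound by VLA-4, was highest in alveolar fibroblast-like cells with 303. Cdh1, the E-cadherin bound by CD103, was highest in ciliated-like cells with 392 CPM, and basophil or mast cell-like cells had 301. Fn1 and Spp1 were highest in Arg1 macrophage-like cells, with 2259 and 3619. Madcam1 was seen in 2 cells, and Fgb had no UMI.

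Of the 14 genes for adaptors and activators inside the cell, Tln1, Rap1a, Rap1b and Apbb1ip were highest in nonclassical monocyte-like cells, with 761, 731, 1518 and 566 CPM, the class that also led in Itgal, Itga4 and Itgb2. Fermt3 and Rasgrp2, for kindlin-3 and an activator of Rap1, were highest in megakaryocyte or platelet-like cells with 446 and 322. Fermt2 led in pericyte-like cells with 1050, and Vcl and Ilk in smooth muscle-like cells with 329 and 291. Of the 17 other integrins, Itgb3 and Itga6 were highest beside Itga2b in megakaryocyte or platelet-like cells, with 378 and 514. Itga1 was highest in pericyte-like cells with 2135, Itga9 in lymphatic endothelial-like cells with 289 and Itgb2l in neutrophil precursor-like cells with 281.

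Genes most like each member across the 27 classes were named by Pearson's r of log2(CPM + 1) among 8349 genes that reached 50 CPM in a class. Classes share libraries and free RNA, so that r is a description. Bhlhe40, Sh2d1b1 and Havcr2 were closest to Itgax (r = 0.91, 0.85 and 0.85), and Gm49368, Igsf6 and Cd300lb to Itgam (0.93, 0.89 and 0.88). Gm49368 overlaps Itgam and shares sequence with it, so that its r is not independent of Itgam reads. Stk10, Spn and Itgb2 were closest to Itgal (0.91, 0.90 and 0.89). To Itgad, which had only 268 UMIs in all, Sla2, Mctp2 and Il12rb2 were closest (0.85, 0.68 and 0.68). For Itgae they were AC163354.1, Mir155hg and A530099J19Rik (0.78, 0.77 and 0.77). For Itga4 they were Ikzf1, Ptprc and Dock2 (0.91 each), for Itga8 Adamts17, Wisp2 and Col13a1 (0.93, 0.93 and 0.92), and for Itga2b Alox12 and Gp6 (0.91 each). Itgb2 was closest to Myo1f, Arhgap9 and Laptm5 (0.96, 0.93 and 0.93), and Itgb7 to Runx3, Tagap and Coro1a (0.91, 0.89 and 0.87).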

How the data were processed

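Single cells of dissociated mouse lung were measured by 3′ RNA sequencing. The authors deposited UMI counts per gene and barcode as whole numbers, made with Cell Ranger 3.1.0 per the file header. The submitters' processing notes name STAR and mm10. These counts had not been scaled or put on a log scale. The study's methods state that reads were down-sampled where required to even out the libraries, so that the counts may already be evened for depth. Cells were not tied to samples by any label, so that libraries are given by number and replicate error is unknown.

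From the counts, barcodes with at most 10% mitochondrial UMIs were kept. After scaling each cell to 10000 UMIs and taking logs, 30 principal components of 2000 variable genes were computed. Mutual nearest neighbors served to align the libraries, and a graph of 20 neighbors was partitioned at resolution 0.8 (leidenalg 0.10.2, igraph 0.11.9, scikit-learn 1.9.0, Python 3.11.15, numpy 2.4.6, scipy 1.17.1, pandas 2.3.3). Clusters were named from 34 marker lists by a rule that was revised once the first clusters had been seen. A name needed 3 markers in at least 10% of the cells. Scrublet (scanpy 1.11.5) called 104, 428, 128, 3, 13, 0 and 33 doublets in libraries 1 to 7 and is taken not to have worked in libraries 4, 5 and 6. Its calls were left in, and taken out as an alternative. Where a gene had no UMI, 3 were taken as the upper limit. Figures were drawn with matplotlib 3.10.9. The steps were tested on simulated data.

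The members, the gene lists and the settings were chosen with earlier results of these data known. The genes named are all members, the 3 genes most like each (1 of which is not reported here), and the other listed genes of highest level in leading classes. Transcripts and positions are those of GENCODE M21 on GRCm38. Jam1 was not a symbol of the matrix. Alternatives were tried for the cell filter, alignment, resolution, doublets, libraries, weights, depth, the Ccr3 limit and the count minimum.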

Additional observations from a re-analysis of the deposited data

How the results depend on the processing

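No paired analysis was possible because no library is tied to a group or a replicate by any label. The limits are those of counts from 1 pooled sample. Levels that rest on few UMIs, such as Itgad, were not resolved at this depth, and shares of cells followed depth.

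Under other settings, the class with the highest level stayed the same for 9 of 10 members with the study's limits on UMIs and genes, 8 with a mitochondrial limit of 5%, 8 without alignment, 9 at a resolution of 0.4 and 9 at 1.5. Itgb7 moved to type 1 dendritic cell-like cells (study's limits) and type 2 dendritic cell-like cells (1.5), Itgax to alveolar macrophage-like cells (5%), Itgad to NK cell-like cells (5%, no alignment) and Itgam to eosinophil-like (no alignment) and neutrophil-like cells (0.4). The cause was not tested. The levels below are CPM in the class that led for each gene in the main clustering, also where another class led under the setting. Alveolar macrophage-like cells are a second class for Itgax. The study's limits gave Itgax 492, Itgam 836, Itgal 1240, Itga4 1006, Itga8 554, Itga2b 612 and Itgb2 799. The 5% limit gave Itgax 427 and, in alveolar macrophage-like cells, 452, with Itgam 664, Itgae 319 and Itga8 480 (479.6). Without alignment, Itgax was 516 and 493, Itgae 327, Itgal 1257, Itga4 1016, Itga8 470.02, Itga2b 699 and Itgb2 806. At a resolution of 0.4, Itgax was 506 and 493, Itgal 1290.4, Itga4 1039.6, Itga8 438, Itgb2 824 and Itgb7 319. At 1.5, Itgal was 1290.01, Itga4 1037, Itgb2 824 and Itgb7 289. Without Scrublet calls Itga8 was 509. Without libraries 4, 5 and 6, Itgam was 881, Itga4 1067, Itga2b 1617 and Itgb7 340.5. This Itgb7 level of T cell-like cells lay above the pooled 297 of type 1 dendritic cell-like cells. With libraries weighted equally, Itgax was 505 and 489, Itgam 796, Itgae 368, Itgal 1439, Itga8 475, and Itgb2 941. As means of single cells, Itgax was 493, Itgam 896, Itga8 512, Itga2b 761 and Itgb7 312. With haemoglobin UMIs left out of the totals, an alternative added after seeing the data, Itgam was 787 and Itga2b 1539.

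Itgax in cells with at least 2 Ccr3 UMIs was 228. Thinned to 1500 and 400 UMIs, an Itgax UMI was seen in 17.6% and 7.83% of the Ccr3-positive cells that were deep enough. This left out 101 and 9 of the 226 cells, so that the first share mostly describes cells outside the basophil or mast cell-like class. In alveolar macrophage-like cells the shares were 48.1% and 17.1%. Thinned to 1500, the share with the beta chain in cells with the alpha chain minus that in cells without was 1.22 points for Itgb2 and Itgax in alveolar macrophage-like, 5.02 for Itgb2 and Itgam in neutrophil-like and 5.0 for Itgb1 and Itga8 in alveolar fibroblast-like cells. It changed sign to -0.336 for Itgb1 and Itga4 in classical monocyte-like, -0.418 for Itgb7 and Itgae in type 1 dendritic cell-like, -3.12 and -2.02 for Itgb7 and Itga4 in NK cell-like and basophil or mast cell-like, and -10.6 for Itgb2 and Itgax in type 2 dendritic cell-like cells. With at least 200 UMIs, 0 members passed the limit in NK cell-like cells between library sets, because fewer were measured, and 3 between Arg1 and alveolar macrophage-like cells. With each library left out in turn, the ranges were 460 to 567 and 461 to 506 for Itgax, 711 to 799 for Itgam, 319 to 386 for Itgae, 1335 to 1394 for Itgal, 1041 to 1127 for Itga4, 437 to 508 for Itga8, 616 to 823 for Itga2b, 6.68 to 13.0 for Itgad, 844 to 885 for Itgb2 and 281 to 322 for Itgb7.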
